A study of Mus musculus with 4 samples.

Results

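Astrocyte marker genes were followed through 4 RNA libraries of cells that had been pulled from mouse brain by their surface CD11b, an integrin of myeloid cells. The genes were chosen by name, and 9 of the 55471 genes in the count table made up the set: Gfap, S100b, Aqp4, Gja1, Gjb6, Aldoc, Aldh1l1, Fgfr3 and Sox9. All 4 libraries belong to 1 group: mice 10 to 13 weeks old received PLX5622, which blocks the receptor kinase CSF1R, for 7 days and were then kept without it for 10 days (17 days in all). The labels call the cells repopulated microglia, give no strain, and do not say whether a library came from 1 animal. The p-values below therefore speak only of how far these 4 samples lie apart, and that spread may be technical. No untreated group was analysed here, so the report gives levels and their spread and estimates no drug effect.

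Astrocytes are the glia that wrap synapses and blood vessels, clear glutamate and potassium from the space around neurons, and exchange small molecules with each other through gap junctions. Gfap builds their intermediate filaments, S100b is a calcium-binding protein, and Aqp4 is the water channel of the endfeet on vessels. Gja1 and Gjb6 encode the connexins of astrocyte gap junctions, Aldoc is the brain isoenzyme of the glycolytic enzyme aldolase, and Aldh1l1 is a folate enzyme. Fgfr3 is a receptor kinase for fibroblast growth factors, and Sox9 is a transcription factor of the astroglial lineage. Several of the genes are not restricted to astrocytes: S100b is also made in the oligodendrocyte lineage, and Sox9, Gfap, Aqp4 and S100b are also known from ependyma, the ciliated lining of the ventricles, or from choroid plexus.

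The upstream sequence of 4 of the genes is shown because they span the range of behaviour described below: S100b and Gfap with large differences between libraries, Aldoc with the smallest, and Gja1 with the profile closest to the median of the set. Each line holds the 250 bases before the RefSeq start site on GRCm38.p6, read 5′ to 3′ on the strand of the gene, and capitals mark TTGGC or its reverse complement, the core letters of NFI binding sites.
S100b (chr10:76253586-76253835, plus strand): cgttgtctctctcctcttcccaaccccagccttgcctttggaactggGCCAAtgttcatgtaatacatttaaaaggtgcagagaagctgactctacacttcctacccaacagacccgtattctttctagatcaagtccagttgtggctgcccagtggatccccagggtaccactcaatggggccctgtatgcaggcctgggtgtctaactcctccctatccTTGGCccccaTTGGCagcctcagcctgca
Gfap (chr11:102897201-102897450, minus strand): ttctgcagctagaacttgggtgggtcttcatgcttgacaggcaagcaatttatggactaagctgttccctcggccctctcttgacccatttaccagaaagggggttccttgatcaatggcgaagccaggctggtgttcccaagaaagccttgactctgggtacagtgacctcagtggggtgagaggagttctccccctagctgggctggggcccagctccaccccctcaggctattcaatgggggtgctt
Gja1 (chr10:56377050-56377299, plus strand): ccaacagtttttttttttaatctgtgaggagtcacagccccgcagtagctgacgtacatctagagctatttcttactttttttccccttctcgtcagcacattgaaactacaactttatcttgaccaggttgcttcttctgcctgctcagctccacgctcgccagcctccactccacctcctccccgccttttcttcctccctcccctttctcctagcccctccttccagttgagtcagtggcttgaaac
Aldoc (chr11:78322823-78323072, plus strand): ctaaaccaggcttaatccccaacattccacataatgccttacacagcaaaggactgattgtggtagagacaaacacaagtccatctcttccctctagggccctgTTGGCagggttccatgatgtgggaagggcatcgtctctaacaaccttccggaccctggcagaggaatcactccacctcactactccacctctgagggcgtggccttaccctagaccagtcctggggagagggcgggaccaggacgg
A RefSeq entry was found for 7 of the 9 genes, all but Aqp4 and Sox9, and these 7 genes have 9 start sites. TTGGC on either strand was present for 2 of the 7 genes, at 3 places for S100b and at 1 place for Aldoc. Of all 32851 upstream windows of this length in the table, 41.5% held it. The SOX core ACAAT was found on either strand for 1 gene, Aldoc, against 27.7% of all windows, and the STAT pattern TTCNNNGAA for 1 gene, also Aldoc, at its second start site, against 7.02%. The full NFI palindrome, TTGGC and GCCAA on 1 strand with 5 bases between them, was in none of the 9 windows and in 0.0365% of all windows. These matches describe the letters of the windows.

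Total counts ran from 23036202 to 24487418 per library, and the libraries are named 1 to 4 as in the labels. Levels are given as CPM, counts of a gene per 1000000 counts of its library after scaling the libraries to each other. A floor of 3 counts lay between 0.119 and 0.132 CPM and covers counting error only. The cells carried the defining genes of microglia: the 15 homeostatic microglial genes had a median of 1975 CPM, and all 15 were detected, meaning at 1 CPM or above in all 4 libraries. The 9 astrocyte markers had a median of 11.1 CPM. Both medians were taken over the genes in each library as log2(CPM + 0.5), averaged over the 4 libraries and turned back into CPM.

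All 9 astrocyte markers were detected, against 44.9% of the 27874 genes with at least 1 count and 88.7% of the 14112 genes abundant enough to be tested for spread. Their counts ran from 90 for Sox9 in library 3 to 810 for Gja1 in library 4, so each value stood well above the floor. In bulk RNA, fewer astrocytes in a library, less RNA per astrocyte and less RNA from other cells that make these genes cannot be told apart. Summed over the 9 genes, the level was 138, 98.8, 73.7 and 166 CPM in libraries 1 to 4. It was highest in library 4 and lowest in library 3. Gfap, Aqp4 and Gja1 followed the order of the sums, 4, 1, 2 and 3. S100b and Gjb6 shared the order 1, 4, 2 and 3, and Aldh1l1 and Sox9 the order 4, 2, 1 and 3. Aldoc and Fgfr3 each had an order of their own, as the plot of the markers by library shows.

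**Figure D1:**
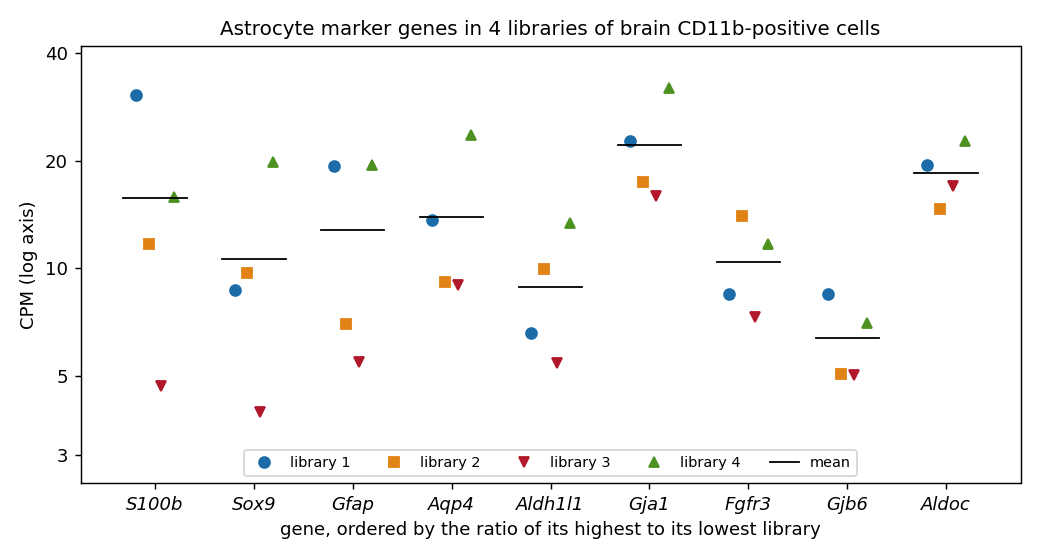
CPM of the 9 astrocyte marker genes on a log axis, with 1 point per library and a bar at the mean of 4 libraries; genes are ordered by the ratio of their highest to their lowest library, from 6.58 for S100b to 1.54 for Aldoc. Library 3 is the lowest point of every gene except Aldoc, and library 4 is the highest of 6 genes.

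Among the structural and calcium-binding markers, Gfap (ENSMUSG00000020932; GRCm38 chromosome 11, 102887336 to 102900912, minus strand) had 19.3, 7.00, 5.46 and 19.5 CPM in libraries 1 to 4, with a mean of 12.8 ± 7.63 (SD, n = 4). Libraries 1 and 4 were nearly equal and lay above libraries 2 and 3. S100b (ENSMUSG00000033208; chromosome 10, 76253853 to 76261159, plus strand) had 30.7, 11.7, 4.67 and 15.8 CPM, a mean of 15.7 ± 11. Here library 1 stood above library 4, and library 3 was 6.58-fold below library 1. S100b was the 1 marker that varied between libraries beyond genes of like level (edgeR goodness of fit, adjusted p = 0.00945), as did 3.28% of the 14112 genes tested (463). Leaving out 1 library at a time in edgeR, the call was lost without library 1 (adjusted p = 0.562, where 2.98% of all genes passed) and without library 3 (adjusted p = 0.106, with 0.716% passing). It held without library 2 (adjusted p = 0.0284, with 1.94% passing) and without library 4 (adjusted p = 0.0163, with 1.82% passing). S100b also remained the only marker called with scaling to total counts (3.31% of genes) and with no filter on low counts (1.5% of genes). It was also lost in the quasi-likelihood test in edgeR (adjusted p = 0.889), which called none of the genes (0%) and gave 658 an unadjusted p under 0.05. Gfap had an adjusted p of 0.103 in the edgeR goodness of fit, and an unadjusted p of 0.00437.

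The endfoot and gap junction markers resembled one another somewhat more than Gfap and S100b did. The log2 ratios of their pairs had an SD of 0.21 to 0.48 over the libraries, against 0.56. The likeness was not particular to them, as Aldoc had an SD of 0.25 with both Gja1 and Gjb6. Aqp4 (ENSMUSG00000024411; chromosome 18, 15389496 to 15410982, minus strand) had 13.7, 9.16, 8.98 and 23.6 CPM, a mean of 13.9 ± 6.84 (SD, n = 4). Gja1 (ENSMUSG00000050953; chromosome 10, 56377330 to 56402513, plus strand) had 22.8, 17.5, 15.9 and 32.1 CPM, a mean of 22.1 ± 7.34. Both were highest in library 4, next in library 1, and low in libraries 2 and 3. Gjb6 (ENSMUSG00000040055; chromosome 14, 57123303 to 57133611, minus strand) was less abundant, at 8.49, 5.05, 5.02 and 7.03 CPM, a mean of 6.40 ± 1.68, and was highest in library 1. In each of the 3 genes, libraries 2 and 3 were almost level, and none passed the spread test in edgeR (adjusted p of 0.62 for Aqp4 and 1 for both connexins).

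The metabolic markers differed from each other in how steady they were. Aldoc (ENSMUSG00000017390; chromosome 11, 78322968 to 78327781, plus strand) had 19.5, 14.7, 17.0 and 22.7 CPM, a mean of 18.5 ± 3.43 (SD, n = 4), the narrowest relative spread of the 9 genes (18.6% of its mean). It was the 1 marker whose lowest library was library 2, as for 19.5% of all genes tested. Aldh1l1 (ENSMUSG00000030088; chromosome 6, 90486427 to 90600203, plus strand) had 6.57, 9.98, 5.42 and 13.4 CPM, a mean of 8.84 ± 3.61. In contrast to Gfap, it was higher in library 2 than in library 1. Neither gene passed the spread test (edgeR, adjusted p = 1 for each). Gm15756, on the opposite strand, overlaps 11% of the exonic bases of Aldh1l1 and had 1, 0, 0 and 1 counts, and Gm45901, on the same strand, overlaps 2.33% and had 0 counts in every library.

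Of the signalling and transcription genes, Fgfr3 (ENSMUSG00000054252; chromosome 5, 33721674 to 33737068, plus strand) had 8.49, 14.0, 7.31 and 11.7 CPM, a mean of 10.4 ± 3.07 (SD, n = 4). It was the 1 marker with its highest value in library 2, where 16.5% of all genes tested were highest. Sox9 (ENSMUSG00000000567; chromosome 11, 112782224 to 112787760, plus strand) had 8.69, 9.72, 3.96 and 19.9 CPM, a mean of 10.6 ± 6.72. Library 4 was 5.03-fold above library 3, with libraries 1 and 2 between them. In the edgeR goodness of fit, Fgfr3 had an adjusted p of 1 and Sox9 of 0.163, with an unadjusted p of 0.00846. An unadjusted p under 0.05 was reached by 3 of the 9 markers (S100b, Gfap and Sox9) and by 9.57% of all genes tested. With the trended dispersion of DESeq2, these 3 genes passed (adjusted p of 0.00164 for S100b, 0.0281 for Gfap and 0.0461 for Sox9), as did 4.31% of all genes. The gene G630022F23Rik overlaps 13.9% of the exonic bases of Fgfr3 on the opposite strand and had 0, 0, 3 and 0 counts.

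Levels of different genes were compared after dividing CPM by the exonic length in kilobases. S100b was the highest at 10.6 ± 7.42 CPM per kilobase (SD, n = 4), followed by Aldoc at 5.67 ± 1.05 and Gfap at 3.04 ± 1.81. The order then ran through Sox9 (2.56 ± 1.62), Gjb6 (2.39 ± 0.628), Aqp4 (2.22 ± 1.10), Gja1 (2.15 ± 0.715) and Aldh1l1 (1.96 ± 0.800) to Fgfr3 (1.45 ± 0.429). Gja1, the highest in CPM, was therefore the seventh per length, its exons covering 10257 bases against 1484 for S100b. Aldoc exceeded Gfap in all 4 libraries, with a log2 ratio of 1.11 ± 0.76, and Aldh1l1 exceeded Fgfr3 in all 4, with 0.39 ± 0.32. For the other 6 neighbouring pairs the SD of the log2 ratio was larger than its mean, so their order was not resolved by the spread between libraries. Flipping the signs of 4 log2 ratios, an exact permutation test (two-sided), gives no p below 0.125, which was the value of both of these pairs (adjusted p = 0.5 over the 8 pairs). S100b stood at percentile 65.7 and Aldoc at percentile 47.0 of all detected genes by this scale, and the other 7 markers between percentiles 15.5 and 30.0. With the longest annotated transcript as the length, Gja1 moved up to the third place and 4 of the 9 genes kept theirs, S100b and Aldoc among them.

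**Figure D2:**
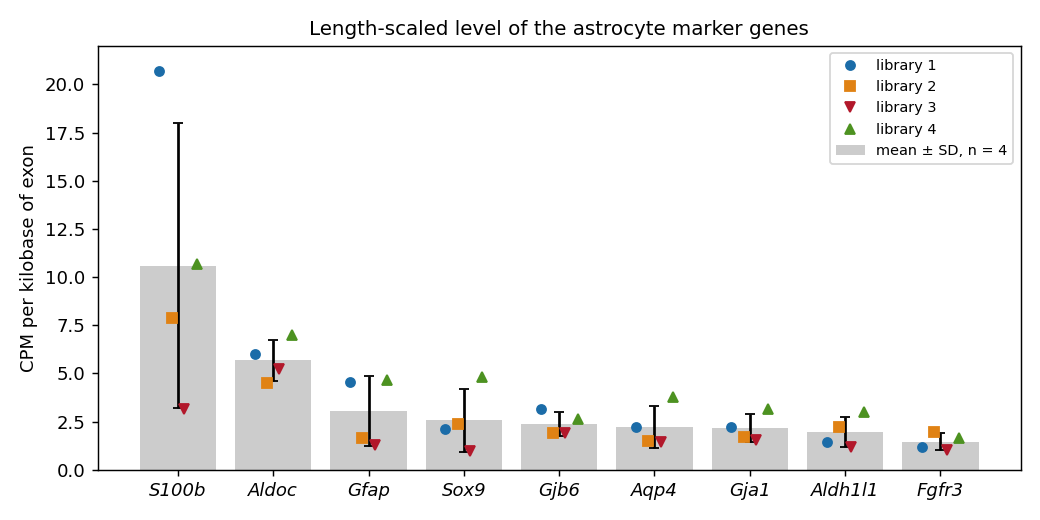
CPM per kilobase of exon for each marker, as bars of the mean with the SD over 4 libraries and 1 point per library; the axis starts at 0. S100b ranges from 3.14 in library 3 to 20.7 in library 1, and 7 of the 9 genes have means between 1.45 and 3.04.

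Library 3 was low for the markers and library 4 high. Lowest in library 3 were 8 of the 9 markers, against 29.2% of the 14112 genes tested, and highest in library 4 were 6 of the 9, against 20.9%. Among the 3201 tested genes with a mean between 6.40 and 22.1 CPM, the range of the markers, these shares were 38.8% and 24.8%. For Aqp4 and Gjb6 the difference between libraries 2 and 3 was so small that library 2 became the lowest with DESeq2 size factors, which left 6 of 9 lowest in library 3. With scaling to the homeostatic list, which moves the median of all genes by -0.18 in library 3 and 0.17 in library 4 (log2), all 9 were lowest in library 3, and 6 of 9 were highest in library 4.

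The size of the library 3 difference varied among the markers. The mean of libraries 1, 2 and 4 was 4.16-fold above library 3 for S100b, 3.22-fold for Sox9 and 2.80-fold for Gfap. It was 1.84-fold for Aldh1l1, 1.73-fold for Aqp4, 1.56-fold for Fgfr3 and 1.52-fold for Gja1, and 1.37-fold and 1.11-fold for Gjb6 and Aldoc. The median over the 9 markers was 1.73, and over all genes tested it was 1.00. In library 4, Sox9 was 2.67-fold, Aqp4 2.22-fold, Gfap 1.85-fold, Aldh1l1 1.83-fold and Gja1 1.72-fold above the mean of the other libraries. Aldoc (1.33), Fgfr3 (1.18), Gjb6 (1.14) and S100b (1.01) lay closer to the other libraries, and the median of all genes tested was 0.994. S100b and Gjb6 had their highest value in library 1, as did 34.2% of all genes tested.

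Genes of other cell types also differed between these libraries, and their part in the differences between markers was not tested. Each of the 11 choroid plexus genes had its minimum in library 3 and its maximum in library 4, with summed levels of 16302, 16322, 3398 and 22777 CPM in libraries 1 to 4. All 10 ependymal genes were lowest in library 3, with sums of 73.0, 60.9, 22.8 and 114 CPM, and so were all 11 endothelial genes, with sums of 1442, 1346, 312 and 1163 CPM. Of all genes tested, 29.2% had their minimum in library 3 and 20.9% their maximum in library 4. Oligodendrocyte genes had sums of 888, 482, 403 and 618 CPM, the smallest again in library 3. There, 9 of 11 lay below the mean of the others, against 7158 of all 14112 genes tested. Gene by gene the order differed: 10 of 11 peaked in library 1, against 34.2% of all genes tested. The minimum fell in library 2 for 8 of 11, against 19.5%. The library 3 ratio had a median of 5.07 (4.58 to 5.91) for choroid plexus, 4.71 (3.36 to 6.40) for endothelium, 4.19 (2.08 to 6.86) for ependyma, 1.18 (0.772 to 4.37) for oligodendrocytes and 0.883 (0.787 to 1.17) for homeostatic microglia. All 9 astrocyte markers thus had a smaller ratio than every choroid plexus gene, and 8 of the 9 a smaller ratio than every endothelial gene, S100b being the exception. All 9 lay within the range of the oligodendrocyte genes, and Gfap, Sox9 and S100b also within that of the ependymal genes.

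**Figure D3:**
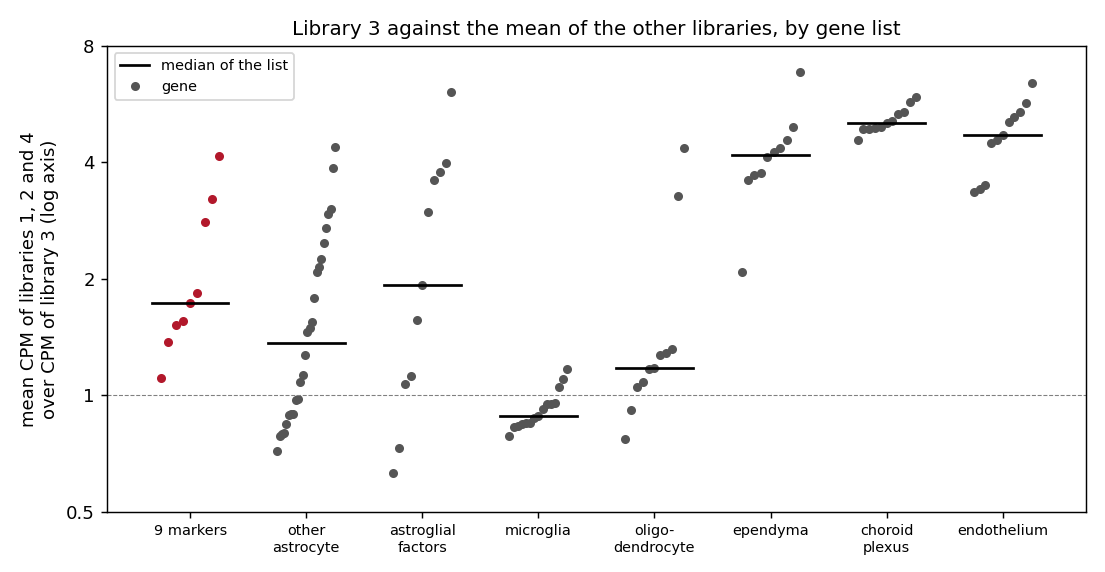
Ratio of the mean CPM of libraries 1, 2 and 4 to the CPM of library 3, on a log axis, with 1 point per gene with more than 3 counts in library 3 and a bar at the median of each list. The 9 markers spread from 1.11 to 4.16. Aldoc, at 1.11, lies within the range of the microglial genes (0.787 to 1.17), and S100b, at 4.16, within that of the endothelial genes (3.36 to 6.40). The other markers lie between these 2 ranges, and all 9 lie below the choroid plexus genes (4.58 and above). All 9 also lie within the range of the oligodendrocyte genes (0.772 to 4.37). Gfap (2.80), Sox9 (3.22) and S100b lie within that of the ependymal genes (2.08 to 6.86).

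Further astrocyte genes split over a wider range of the library 3 ratio, 0.718 to 4.39 against 1.11 to 4.16 for the 9 markers. Of 26 other astrocyte genes, 23 were detected, 25 were tested for spread and 5 passed (edgeR, adjusted p under 0.05), where 3.28% of all genes did. They included Slc7a10, an amino acid transporter (29.4, 32.7, 7.97 and 42.7 CPM in libraries 1 to 4, adjusted p = 0.0023), Mt3, a metallothionein (38.1, 27.9, 9.51 and 44.1 CPM, adjusted p = 0.00464), Fam107a (adjusted p = 0.0277) and Slc39a12, a zinc transporter (adjusted p = 0.0433). These 4 genes were lowest in library 3, with ratios of 2.94 to 4.39, and 2.83% of all genes tested passed and were lowest there. In contrast, the glutamate transporter gene Slc1a2 had 30.4, 33.4, 47.0 and 48.6 CPM and the GABA transporter gene Slc6a11 8.49, 10.7, 13.2 and 12.1 CPM. Ntsr2, a neurotensin receptor (4.90, 5.31, 6.91 and 6.03 CPM), and Acsbg1, an acyl-CoA synthetase (4.08, 4.19, 5.81 and 4.25 CPM), were also lowest in library 1 and above the mean of the others in library 3, with an adjusted p of 1 for each of these 4 genes in edgeR. Over the 26 genes the median ratio was 1.36. Below the mean of the others in library 3 were 16 of the 26, against 7158 of all 14112 genes tested. Among the highest of them per length were Glul at 678 ± 54.5 CPM per kilobase (SD, n = 4), Mt3 at 28.0 ± 14.2 and Slc1a3 at 17.2 ± 2.02, and the lowest were Ppp1r3g at 0.182 ± 0.0685 and Gabrg1 at 0.124 ± 0.0262. Glul, glutamine synthetase, varied little between libraries (2072 to 2443 CPM), and which cells carried it was not tested.

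Transcription factors of the astroglial lineage showed a similar spread around Sox9. Of the 11, 7 were detected, where 44.9% of genes with a count were, and 3 of 9 tested passed the spread threshold in edgeR, where 3.28% of all genes did: Id3 (adjusted p = 0.0002), Nfib (adjusted p = 0.0228) and Id4 (adjusted p = 0.0447), each lowest in library 3. Id3, an inhibitor of basic helix-loop-helix factors that vascular cells also express, had 35.0, 34.5, 5.42 and 29.6 CPM, and its relative Id4 had 16, 15.2, 5.28 and 28.6 CPM. Id4, like Sox9, was highest in library 4, and Id3 was not. Nfix (71.8 to 97.1 CPM) and Nfia (59.7 to 68.6 CPM) were steadier, and Zbtb20 had 72.9 to 127 CPM. The lowest per kilobase were Hes5 at 0.163 ± 0.0783 and Lhx2 at 0.152 ± 0.0457 CPM per kilobase (SD, n = 4). Sox2, which marks neural stem cells and astroglia, had 3.96, 5.79, 2.29 and 10.7 CPM.

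Genes of the reactive state of astrocytes and of the endfoot were listed as well. Of 22 reactive genes, 17 were detected, against 44.9% of genes with a count, and 5 of 18 tested passed the spread threshold in edgeR, against 3.28% of all genes tested: Vim, Cp and Synm were lowest in library 3, and Cxcl10 and C3 were highest there. Vim, an intermediate filament that vascular cells also make, had 179, 146, 57.2 and 119 CPM, Synm 25.7, 32.8, 7.35 and 36.4 CPM and Cp, ceruloplasmin, 53.5, 50.2, 14.2 and 40.1 CPM. C3, a complement protein, had 6, 18.4, 32.4 and 19.2 CPM and the chemokine Cxcl10 10.7, 26.9, 45.8 and 27.4 CPM. Both were thus highest where S100b was lowest and lowest where it was highest. Which cells carried C3 and Cxcl10 in these CD11b-selected samples was not tested. Serpina3n, induced in reactive astrocytes, had 0.228 ± 0.0767 CPM, and Timp1 (0.112 ± 0.126 CPM) and Ptx3 (1 count in all) were under the floor on average (SD, n = 4). Of the 8 endfoot genes, 2 passed, to be read against the same 3.28%, the dystrophin relative Utrn (95.5, 143, 45.9 and 124 CPM) and the syntrophin Sntb1 (10.5, 16.2, 2.33 and 20 CPM), both lowest in library 3. Dystroglycan (Dag1), the membrane anchor of the dystrophin complex, had 67.0 to 103 CPM. Among the 5 Bergmann glia genes, A2m had 18.2, 28.1, 6.25 and 45.1 CPM (edgeR, adjusted p = 0.000225), and Gdf10 and Timp4 stayed at 1.55 ± 0.544 and 1.79 ± 0.360 CPM.

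Each marker was also set beside its relatives, on the scale of CPM per kilobase. Among 12 connexins, 6 were detected, against 44.9% of genes with a count: Gja4 (3.63 ± 2.55; SD, n = 4), Gjb6, Gja1, Gjc1 (1.87 ± 1.03), Gjb2 (1.02 ± 0.380) and Gjc3 (0.753 ± 0.244). The vascular connexins Gja4 and Gjc1 were 6.52-fold and 6.27-fold lower in library 3 than in the mean of the others, where Gja1 and Gjb6 were 1.52-fold and 1.37-fold lower. Gjc1 passed the spread test in edgeR (adjusted p = 0.0468) and Gja4 did not (adjusted p = 0.0506). Gjd2, the neuronal connexin, had 0 counts in every library, which allows at most 0.119 to 0.132 CPM. Aqp1, the water channel of choroid plexus, had 20.4 ± 12.1 CPM per kilobase against 2.22 ± 1.10 for Aqp4, and in CPM it had 48.8, 65.3, 12.4 and 87.6 across libraries 1 to 4. Both had their minimum in library 3 and their maximum in library 4, while libraries 1 and 2 were in opposite order. Aqp11 had 0.700 ± 0.367 CPM per kilobase.

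Sox9 was the most abundant of the SOXE factors, with 2.56 ± 1.62 CPM per kilobase (SD, n = 4) against 0.624 ± 0.200 for Sox10, the oligodendrocyte lineage factor, and 0.392 ± 0.0132 for Sox8. Sox10 was highest in library 3, where Sox9 was lowest. Its level was low, at 1.67, 1.17, 2.55 and 2.22 CPM in libraries 1 to 4. It did not pass the spread test (edgeR goodness of fit, unadjusted p = 0.545). Among FGF receptors, Fgfrl1 (3.87 ± 0.771), Fgfr1 (2.62 ± 1.08) and Fgfr2 (1.82 ± 0.942) had higher means than Fgfr3 (1.45 ± 0.429), and Fgfr4 had at most 1 count in a library. Fgfr2 exceeded Fgfr3 only in libraries 1 and 4, so their order was not resolved. Aldoa, the ubiquitous aldolase, had 102 ± 7.78 CPM per kilobase, and its 50-base words were 86.5% unique among transcripts of other genes. Of the intermediate filaments, Vim (26.4 ± 10.9), Nes (7.13 ± 2.85) and Synm (3.22 ± 1.63) had higher means than Gfap (3.04 ± 1.81), and Des, of muscle, had 2.11 ± 1.34. Synm exceeded Gfap only in library 2, so the order of these 2 genes was not resolved. Aldh1l2, the mitochondrial relative of Aldh1l1, had 0.646 ± 0.121 and was not low in library 3 (4.2, 6.05, 5.06 and 4.09 CPM).

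In the S100 family, 9 of 10 genes were detected, against 44.9% of genes with a count. Highest in library 1 were 8 of 10, S100b among them, against 34.2% of all genes tested and 41.5% of those in the range of the markers. Per kilobase, S100a9 (33 ± 18.7; SD, n = 4), S100a1 (24.5 ± 10.3), S100a13 (21 ± 10.1), S100a8 (19.7 ± 11.5) and S100a10 (11.2 ± 2.84) had higher means than S100b (10.6 ± 7.42). S100a11 (8 ± 2.05), S100a16 (6.17 ± 3.77) and S100a6 (5.53 ± 2.58) had lower means. By library, S100a10 and S100a11 exceeded S100b only in libraries 2 and 3, and S100a6 only in library 3. S100a8 exceeded it in all but library 4. The 50-base words of S100a11 were only 58.9% unique among transcripts of other genes, against 100% for S100b, so its place below S100b is less sure. S100a16, at 17.5, 9.11, 2.69 and 10.6 CPM, resembled S100b in its course over the libraries, while S100a8 and S100a9, of neutrophils, were lowest in library 4.

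To see which markers moved together, each gene was centred on its own mean of log2(CPM + 0.5), and 2 profiles were compared by the root mean square difference over the 4 libraries. With 4 points that share the same libraries and depth, these distances are a description. The median profile of the markers was 0.10, -0.28, -0.49 and 0.59 (log2) in libraries 1 to 4. Gja1 lay at 0.04 from it, Aqp4 at 0.16, Aldoc at 0.24, Gjb6 at 0.28 and Aldh1l1 at 0.34, with Sox9 at 0.44, Fgfr3 at 0.45, Gfap at 0.46 and S100b at 0.73. Of the 36 pairs of markers, Aqp4 and Gja1 held the steadiest ratio, 0.604, 0.525, 0.565 and 0.733 in libraries 1 to 4, the log2 of which had an SD of 0.21. S100b and Fgfr3 held the least steady, 3.62, 0.831, 0.639 and 1.35, with an SD of 1.10 (log2).

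**Figure D4:**
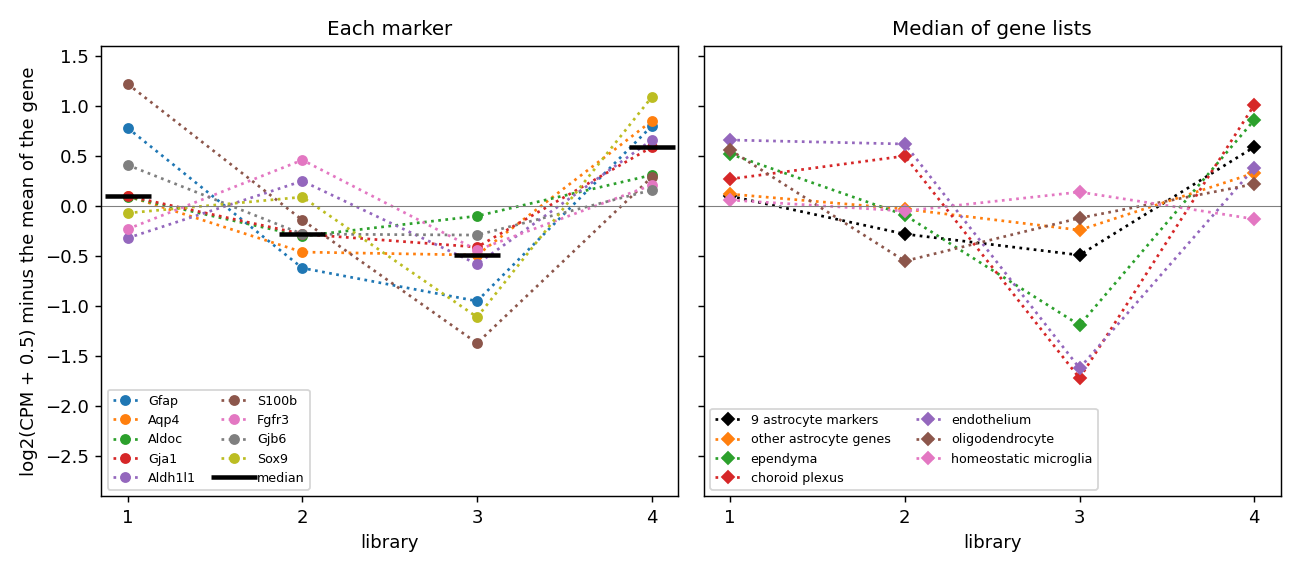
Level of each marker (left) and median over the genes of each list (right) in libraries 1 to 4, as log2(CPM + 0.5) minus the mean of the gene; dotted lines only join the points of 1 gene or list, and black bars mark the median of the markers. S100b runs from 1.22 in library 1 to -1.37 in library 3, and Aldoc stays between -0.30 and 0.31.

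The genes with the profile most like the median of the markers, out of 10736 genes with a mean of at least 5 CPM, were Hepacam (root mean square difference 0.09), Ptprd (0.11), Kndc1 (0.12), Scg3 (0.13), Prodh (0.15) and Asrgl1 (0.16). Hepacam, a cell adhesion protein of astrocyte endfeet, had 7.10, 4.88, 4.97 and 10.2 CPM in libraries 1 to 4. It followed the order of Gja1 except that library 2 was just below library 3. Of these 6 genes, 3 stayed among the nearest when the largest difference in any library was used, and 2 when genes under 10 CPM were left out.

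The nearest genes were then listed for each marker, a step chosen after the values were seen. For Gja1 they were Hepacam at 0.06, Ptprd at 0.07 and Scg3 at 0.10, and for Aqp4 Hepacam and Mlc1, a membrane protein of astrocyte endfeet, both at 0.15. For S100b the nearest of all was Mobp, a myelin protein, at 0.13 (131, 61.1, 20.6 and 77.5 CPM). Depp1 and S100a16 came next, both at 0.17, and then Mbp, the myelin basic protein gene, at 0.19 (382, 207, 84.0 and 237 CPM). Gfap had no neighbour closer than 0.25, and Ccdc153, listed among the ependymal genes, was the second at 0.26 (9.38, 5.05, 2.6 and 13.7 CPM). Sox9 had Gm973 at 0.05 and Fzd3 at 0.09, followed by Ak7, an adenylate kinase of motile cilia, at 0.10 (8.08, 10.7, 3.70 and 20.4 CPM). For Aldoc, Gjb6, Fgfr3 and Aldh1l1, the 5 nearest lay within 0.08. The first of these were Agbl3 for Aldoc (0.03), Prdx6 for Gjb6 (0.05), Tgfb1i1 for Fgfr3 (0.05) and Sesn3 for Aldh1l1 (0.05). None of them was in a cell type list used here.

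Set against the median profile of the detected genes of each cell type list, the markers fell in different places. Of the 8 lists with at least 5 detected genes, the other astrocyte genes were nearest for Aldoc (0.14), Gja1 (0.20), Fgfr3 (0.33), Aldh1l1 (0.36) and Aqp4 (0.36). The neuronal and the oligodendrocyte precursor lists, with 4 detected genes each, were left out by that limit. Fgfr3 lay nearer to the neuronal list (0.20), and Aldh1l1 about as near (0.37). From the precursor list, Gjb6 lay at 0.19 and Gfap at 0.50. The ependymal genes were nearest for Sox9 (0.30) and Gfap (0.36). Next for Sox9 among the 8 lists came the meningeal fibroblast genes (0.38) and choroid plexus (0.41). Next for Gfap among them came the oligodendrocyte (0.53), meningeal fibroblast (0.59) and other astrocyte genes (0.62), with choroid plexus at 0.73. Within the 8 lists, Gjb6 was nearest to the oligodendrocyte genes (0.15) and next to the other astrocyte genes (0.22), with the precursor list between them. S100b was nearest to the endothelial and the ependymal genes, at 0.49 from both, and lay 0.76 from the oligodendrocyte genes and 0.80 from the other astrocyte genes. Within the oligodendrocyte list, Mobp and Mbp were lowest in library 3, and Cnp (83.5, 66.2, 100 and 82.6 CPM) was lowest in library 2.

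**Figure D5:**
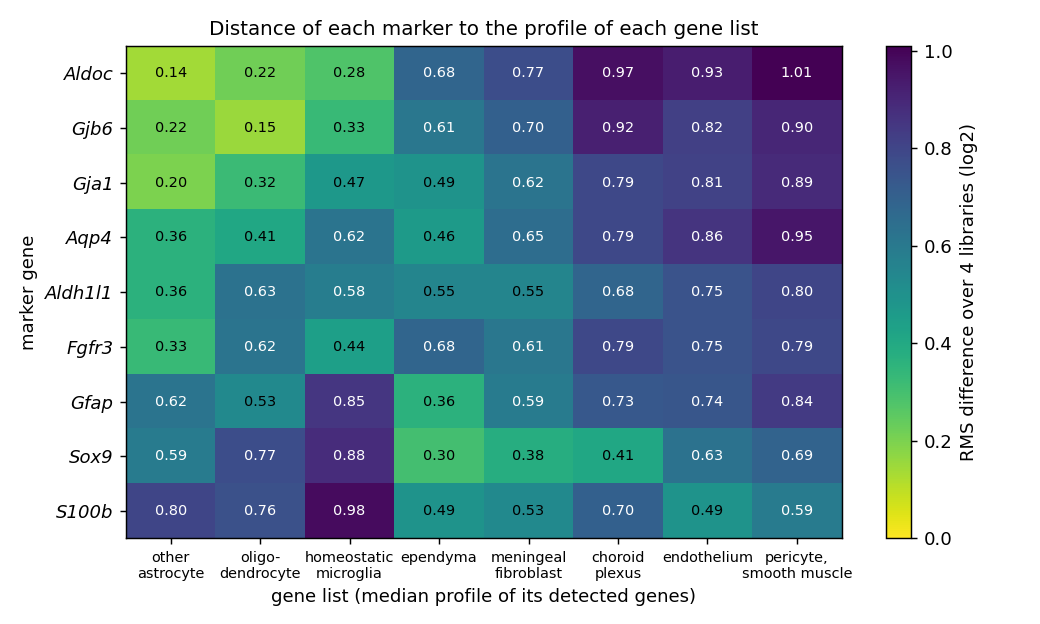
Root mean square difference (log2, over 4 libraries) between the centred profile of each marker and the median profile of the detected genes of the 8 gene lists with at least 5 detected genes; small values, in light colours, mean similar profiles. Aldoc, Gja1, Aqp4, Aldh1l1 and Fgfr3 have their smallest value with other astrocyte genes, from 0.14 to 0.36, and Gfap and Sox9 with ependymal genes, at 0.36 and 0.30.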

How the data were processed

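The authors deposited raw counts per Ensembl gene, with a column for each of the 4 libraries. The tools named in the submitters' processing notes are featureCounts 1.6.5, STAR 2.7.2b and bcl2fastq 2.20.0.422, and the build is GRCm38. For the annotation release, the strand setting and multiply mapped reads, the choices were not given in the sources used here. Per the labels' protocols, poly(A) RNA was selected out of 300 ng of input, and the kit keeps the strand. Of 55471 genes, 55230 matched GENCODE M21, which gave symbols, coordinates and exonic lengths; the other 241 held at most 0.00526% of a library. The 50-base words of Aldh1l1 and Fgfr3 were 91.7% and 91.2% unique among transcripts of other genes, and those of the other 7 members at least 99.8%.

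CPM used TMM library sizes (factors 0.963 to 1.03) in edgeR 4.0.16 under R 4.3.3. Spread was tested over the 14112 genes kept by filterByExpr: the residual deviance of an intercept-only negative binomial fit with trended dispersion was compared with the chi-square distribution (3 degrees of freedom), with Benjamini-Hochberg adjustment and a threshold of 0.05. Alternatives were the quasi-likelihood variance test, DESeq2 1.42.0, other scalings, no filter, and leaving out each library. In simulated counts for these 14112 genes, with genes of 5 to 30 CPM changed in 1 library, the test found 35 of 50 raised 4-fold, 2 of 50 raised 2-fold, 7 of 50 lowered 4-fold and 0 of 50 lowered 2-fold, with 2 false calls. All pairs of libraries differed beyond sampling noise. Members and gene lists were chosen with earlier results of these data known. Named were all 9 members, the highest and lowest genes per kilobase of the astrocyte-related lists with those past the threshold, every detected relative, and the 6 nearest profiles. Other genes of those lists, the nearest genes to each member and the genes named from cell type lists were chosen after their values were seen. Upstream windows were taken from RefSeq (GRCm38.p6). Some genes of the lists that the naming rule would cover are not reported here.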

Additional observations from a re-analysis of the deposited data

Results flagged for a closer look

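None of the 9 markers had a library that stood apart by the gap between its most extreme library and the next, as a share of the range, by Dixon's test at the 95% level. Of 195 listed genes with at least 20 counts in all, 11 did, near the 1 in 20 that chance gives, and 6 of those were low in library 3. Among those low in library 3, the share of the range was 0.866 for Fam107a, 0.958 for Osmr, 0.933 for Amigo2, 0.903 for Slco1a4 and 0.854 for Slc6a13. It was 0.903 for Acsbg1 and 0.861 for Sparc, high in library 3, 0.932 for S100a10 and 0.971 for S100a13, high in library 1, and 0.837 for Olig2, low in library 2. The medians of the reactive astrocyte (0.851), endothelial (0.845) and choroid plexus (0.836) lists also stood apart, each low in library 3, and that of the 9 markers did not.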

How the results depend on the processing

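No paired analysis was possible because all 4 libraries belong to 1 group. Under the 3 other scalings, the levels of the 9 markers moved by less than 1 SD. The count of markers past the spread threshold, 1 with every gene kept or total counts, was 0 with the quasi-likelihood variance test and 3 with DESeq2, and ran from 0 to 1 when each library was left out, being 0 without library 1 and 0 without library 3; over all genes the count of 463 became 425, 276, 106 and 258 without library 1, 2, 3 and 4, 608 with DESeq2 and 0 with the quasi-likelihood test. Markers lowest in library 2 numbered 3 with DESeq2 size factors and 0 with scaling to the homeostatic list, against 1. Leaving out each other library, alternatives added after the data were seen, gave 8, 9 and 8 markers lowest in library 3 without libraries 1, 2 and 4, against 36.1%, 36% and 34.2% of all genes tested, and 8, 6 and 5 highest in library 4 without libraries 1, 2 and 3, against 29.6%, 27.3% and 29.1%. In the length-scaled order 4 genes kept their place with the longest transcript, and 5 to 9 when a library was left out (5 without library 1 or library 4). Of the 6 nearest profiles, 3 were shared with the largest absolute difference and 2 with a floor of 10 CPM. The median of the markers ran from 3.25 to 3.87 (log2) when a library was left out, against 3.53 ± 0.74 (SD, n = 4). The simulated falls in 1 library were found less often than rises of the same size.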
